A study of Mus musculus with 12 samples.

Results

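Chemokine ligand genes were taken as all genes whose symbol begins with Ccl or Cxcl followed by a digit, together with Cx3cl1 and Xcl1. There were 39 of them among the 21915 genes of the table on the hair cycle and 30 among the 17885 genes of the table on Eed, and all 30 were in both. After a filter on low values, 14 of the 39 could be tested between anagen and telogen, and 22 of the 30 between Eed iKO and control. In all, 23 were tested in at least 1 table and 13 in both, and 16 in neither.

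Chemokines are small secreted proteins that steer the movement of leukocytes and of some other cells along gradients. They bind G-protein coupled receptors, and their CC, CXC, CX3C and C classes are named after the spacing of their first cysteines. Atypical receptors of the Ackr family take chemokines up without the usual signal and so shape the gradients. In skin, keratinocytes make some chemokines constantly, such as Cxcl14 and Ccl27, and others on inflammation, and compartments of the hair follicle differ in the chemokines they make to guide Langerhans cells into the epidermis.

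All 12 libraries were made from mouse hair follicle stem cells of the back skin, sorted as EpCAM-positive, Sca1-negative, α6-integrin-high and CD34-positive cells of the bulge. The hair cycle groups were 3 wild type libraries in anagen, the growth phase (P28 to P30), and 3 in telogen, the resting phase (P50 to P52). The Eed groups were 3 control and 3 Eed iKO libraries at P70. The Eed iKO mice were K15-CrePGR; Eed fl/fl animals, labelled Eed -/-, in which RU-486 on the skin from P50 activates a recombinase under a keratin 15 promoter and removes Eed, a core subunit of Polycomb Repressive Complex 2 (PRC2). The control mice, labelled wild type, received ethanol, so the deletion and RU-486 cannot be told apart. Strain was C57BL/6J throughout, and mice of both sexes were used. Anagen and telogen mice also differed in age, and age and phase cannot be told apart.

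The Eed libraries held 33269583 to 57063586 reads, recovered from the steps of the normalized counts. For the hair cycle libraries depth is not known, as only 29.2% to 37.7% of their values came out as whole reads within 0.02 read. Eed transcript read 950 to 1249 normalized counts in the controls and 933 to 1361 in Eed iKO (log2 fold change -0.01, adjusted p = 0.993), and since reads outside the deleted part may be counted, it did not check the labels. The stem cell markers Krt15 and Cd34 were abundant in every library. Telogen replicate 1 stood apart, with 142410 normalized counts of Krt15 against 344670 to 422430 in the other 5 libraries. Cd34, a gate marker, fell in anagen by 1.21 on the log2 scale (adjusted p = 0.00382), and Itga6, the other graded gate marker, rose by 0.97 (adjusted p = 0.0144). Adjusted p-values are from limma on log2(normalized count + 1) with Benjamini-Hochberg correction over all genes tested, and a gene was called at an adjusted p under 0.05. The Eed libraries were biological replicates drawn from several litters, and the hair cycle cells came from several animals at each age. The sources used here do not tie animals or litters to libraries, so litter could not be a term in the test, and the p-values measure the spread between these libraries.

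The ligands Ccl27a and Ccl27b carry one of the main changes described below, and their reads are hard to tell apart, so the stretch of their coding sequences that holds all their differences (bases 151 to 363) is shown. Ccl27a lies at chr4:41769467-41774247 on the minus strand and Ccl27b at chr4:42655251-42656005 on the plus strand (GRCm38, GENCODE vM21). A further gene, Gm13306, has a transcript at chr4:42158092-42158839 with the same coding sequence as Ccl27b. Capitals mark the 3 bases that differ, which are C177T, G297A and A343C from Ccl27a to Ccl27b. Positions are counted from 1 at the first base of the longest open reading frame of Ccl27b, whose start was matched in Ccl27a.
Ccl27a: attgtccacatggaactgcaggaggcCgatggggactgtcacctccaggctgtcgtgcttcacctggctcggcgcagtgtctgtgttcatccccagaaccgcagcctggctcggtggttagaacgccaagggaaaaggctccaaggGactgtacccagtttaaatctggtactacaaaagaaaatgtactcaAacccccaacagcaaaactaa
Ccl27b: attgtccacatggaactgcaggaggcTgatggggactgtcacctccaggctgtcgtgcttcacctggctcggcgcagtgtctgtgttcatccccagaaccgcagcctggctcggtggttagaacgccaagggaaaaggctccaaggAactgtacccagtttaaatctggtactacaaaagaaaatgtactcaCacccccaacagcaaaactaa
All 363 coding bases were 99.2% identical, and 1 of the 3 differences changed an amino acid. Of the 31-base words of the annotated exons, 100% of those of Ccl27b and 57% of those of Ccl27a were also in another gene. The gene that shared the most words with Ccl27a was Gm20878, followed by Gm13306. The same share was 58.8% for Ccl19, 80.6% for Ccl21a and 100% for Ccl21b, which have copies on the same chromosome, and 18.5% for Cxcl16, which overlaps Zmynd15 on the other strand. For Cxcl12 it was 0.11% and for Cxcl14 0%.

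The 250 bases before the start of 4 ligands are shown for contrast: Cxcl12, Cxcl14 and Ccl27b read lower in anagen, and Cxcl10 is an inflammatory ligand (RefSeq starts, GRCm38.p6). Capitals mark matches to 4 motifs, searched on both strands, where overlapping matches were all counted. The motif of the TATA box was searched as TATAAA. The motif of the Sp1 family was searched as GGGCGG. The motif of the AP-1 family was searched as TGANTCA, where N is any base, and the remaining motif was the NF-kB consensus.
Cxcl12, chr6:117168285-117168534, plus strand: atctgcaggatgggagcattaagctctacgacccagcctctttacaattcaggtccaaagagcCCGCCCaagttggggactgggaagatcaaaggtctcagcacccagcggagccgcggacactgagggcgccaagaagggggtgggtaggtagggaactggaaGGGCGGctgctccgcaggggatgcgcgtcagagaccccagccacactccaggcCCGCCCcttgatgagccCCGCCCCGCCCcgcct
Cxcl14, chr13:56296552-56296801, minus strand: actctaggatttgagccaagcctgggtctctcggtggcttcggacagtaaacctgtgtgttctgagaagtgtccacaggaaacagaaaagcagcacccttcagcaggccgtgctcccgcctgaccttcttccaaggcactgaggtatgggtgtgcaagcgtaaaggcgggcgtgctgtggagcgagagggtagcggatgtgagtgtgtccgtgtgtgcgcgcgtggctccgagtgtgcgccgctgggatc
Ccl27b, chr4:42655001-42655250, plus strand: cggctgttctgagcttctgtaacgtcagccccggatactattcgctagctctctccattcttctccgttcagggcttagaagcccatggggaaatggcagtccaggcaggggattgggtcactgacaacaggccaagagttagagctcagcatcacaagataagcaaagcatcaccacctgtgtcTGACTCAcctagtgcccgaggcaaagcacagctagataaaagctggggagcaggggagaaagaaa
Cxcl10, chr5:92348890-92349139, minus strand: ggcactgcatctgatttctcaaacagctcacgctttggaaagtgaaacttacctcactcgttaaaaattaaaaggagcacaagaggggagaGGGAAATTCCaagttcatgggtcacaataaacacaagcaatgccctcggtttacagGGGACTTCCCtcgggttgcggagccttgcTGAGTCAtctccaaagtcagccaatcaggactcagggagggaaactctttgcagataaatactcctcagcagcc
The Cxcl12 window held GGGCGG 5 times, and the Cxcl14 window held none of the 4 motifs. The Ccl27b window shown, the nearest to its coding transcript, held TGANTCA once, as did that of Ccl27a nearest its coding transcript. Both genes had further starts upstream, whose windows held no TGANTCA, and 1 of those of Ccl27b held TATAAA. The Cxcl10 window held the NF-kB consensus at 2 separate places and TGANTCA once. That of Cxcl1 held the consensus 2 times, as matches on opposite strands that overlap each other. Among all 32851 windows of the same length, 12.4% held TATAAA, 32.7% GGGCGG, 6.75% TGANTCA and 3.9% the NF-kB consensus. Among the ligands without an entry were Cxcl16, Ccl2, Ccl5, Ccl7, Ccl11 and Cxcl5.

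The first comparison asked how ligand expression differs between activated and quiescent stem cells. The ligands that bulge cells made most were lower in anagen. Of the 14 tested, 5 fell (Cxcl12, Cxcl16, Cxcl14, Ccl27a and Ccl27b) and 0 rose, where 4.35% of all 13457 genes tested fell and 7.22% rose. In either direction 35.7% of the ligands and 11.6% of all genes were called. The number called was 3 without telogen replicate 2, 2 without telogen replicate 3 or anagen replicate 2, and 1 without anagen replicate 1. With the thresholds of the study's methods, a log2 fold change beyond 2 and an unadjusted p under 0.05, 2 of 14 passed (Cxcl12 and Ccl27b), against 5.1% of all genes. The median log2 fold change was -0.71 over the 14 ligands and 0.01 over all genes. The ligands made up 0.0516% to 0.0624% of all normalized counts in telogen and 0.0237% to 0.0306% in anagen, with no overlap. In bulk libraries, fewer cells of a type and less RNA per cell cannot be told apart.

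**Figure D1:**
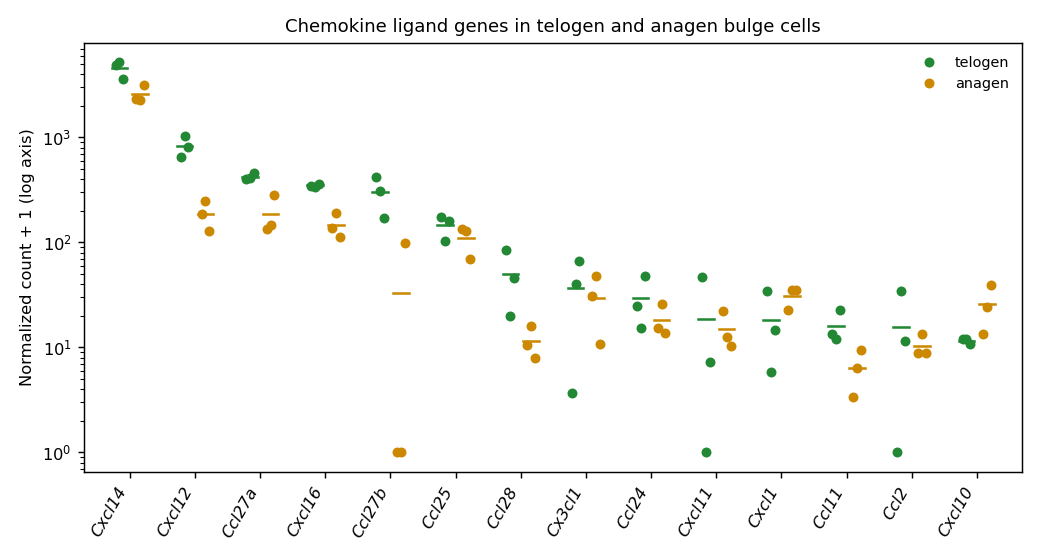
Normalized counts plus 1 (log axis) of the 14 ligand genes tested in 3 telogen and 3 anagen libraries. Each point is a library, short lines are group means, and points at the bottom are listed at 0. The 5 genes Cxcl14, Cxcl12, Ccl27a, Cxcl16 and Ccl27b have every anagen point below every telogen point.

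Cxcl12, the ligand of Cxcr4 and of the scavenger Ackr3, showed the firmest change. It read 653, 1020.5 and 809.6 normalized counts in telogen, against 184, 246 and 126 in anagen. Every anagen library was far below every telogen library. The mean was 828 ± 185 (SD) over the 3 telogen libraries and 185 ± 60.1 (SD) over the 3 of anagen, and the level was 4.53-fold lower in anagen (log2 fold change -2.18, SE 0.31, adjusted p = 0.00148). It was the only one of the 5 to stay called when each of the 6 libraries was left out in turn, with log2 fold changes from -2.41 to -1.93 and adjusted p-values from 0.00142 to 0.00884.

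Cxcl16 is made as a membrane-bound ligand of Cxcr6 and is released by Adam10 and Adam17. Its normalized counts were 347, 338 and 362 in telogen, which were nearly equal, and 137, 190.2 and 112 in anagen. It fell by 1.28 on the log2 scale (SE 0.31, adjusted p = 0.0227). The call was lost without telogen replicate 3 (adjusted p = 0.0556), anagen replicate 1 (0.0905) or anagen replicate 3 (0.086). Zmynd15, which overlaps 18.3% of its exon bases, read 6.18 to 31.01 in anagen and 14.2 to 93.6 in telogen, far below Cxcl16 in each library, and the counting is not stated to use strand.

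Cxcl14, a ligand that epithelia make constantly, had the highest level of all ligands per length. It read 4908, 5192 and 3631 normalized counts in telogen, against 2293, 2253 and 3146 in anagen, where the highest anagen library came close to the lowest telogen library. It fell by 0.84 on the log2 scale (SE 0.21, adjusted p = 0.0284). The call was lost without telogen replicate 2 (adjusted p = 0.0692), anagen replicate 1 (0.131) or anagen replicate 2 (0.127), and with a replicate block (0.0573). Per kilobase of annotated exon, Cxcl14 read 1233 to 2842 over the 6 libraries, above all other ligands. It made up 64% to 68.6% of the summed ligand counts per kilobase in telogen and 76.6% to 83.9% in anagen.

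Ccl27a and Ccl27b encode CCL27, the skin homing ligand of Ccr10. Ccl27a read 397, 405 and 456 normalized counts in telogen, against 134, 144 and 280 in anagen, and fell by 1.25 on the log2 scale (SE 0.33, adjusted p = 0.0345). Ccl27b read 418, 304 and 170 in telogen, was listed at 0 in anagen replicates 1 and 2, and read 96.6 in anagen replicate 3. Its fitted log2 fold change of -5.92 (SE 1.43, adjusted p = 0.023) depends on the 1 added to each value. The call of Ccl27a was lost without telogen replicate 2 (adjusted p = 0.0602), telogen replicate 3 (0.0844), anagen replicate 1 (0.15) or anagen replicate 2 (0.134). That of Ccl27b was lost without any single library except anagen replicate 3, with adjusted p-values of 0.0541, 0.0601 and 0.0502 without telogen replicates 1, 2 and 3 and of 0.0906 and 0.0853 without anagen replicates 1 and 2.

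The 3 near-identical genes gave a clearer picture when summed, a step chosen after seeing the data. Gm20878, which also shares words with Ccl27a, was not in the sum. Ccl27a, Ccl27b and Gm13306 together read 889.9, 1129 and 994 normalized counts in telogen, against 184, 210.3 and 389.5 in anagen. The groups lay far apart, and the sum fell by 2.01 on the log2 scale (SE 0.30, adjusted p = 0.00205). The split among the copies was uneven between libraries of one group: Gm13306 took 8.41%, 37.2% and 37.0% of the sum in the telogen libraries. Gm13306 alone fell by 2.65 (adjusted p = 0.0408), a call kept only without telogen replicate 1 (adjusted p = 0.00658) and lost without telogen replicate 2 (0.115) or 3 (0.12) or anagen replicate 1 (0.0838), 2 (0.0553) or 3 (0.132).

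**Figure D2:**
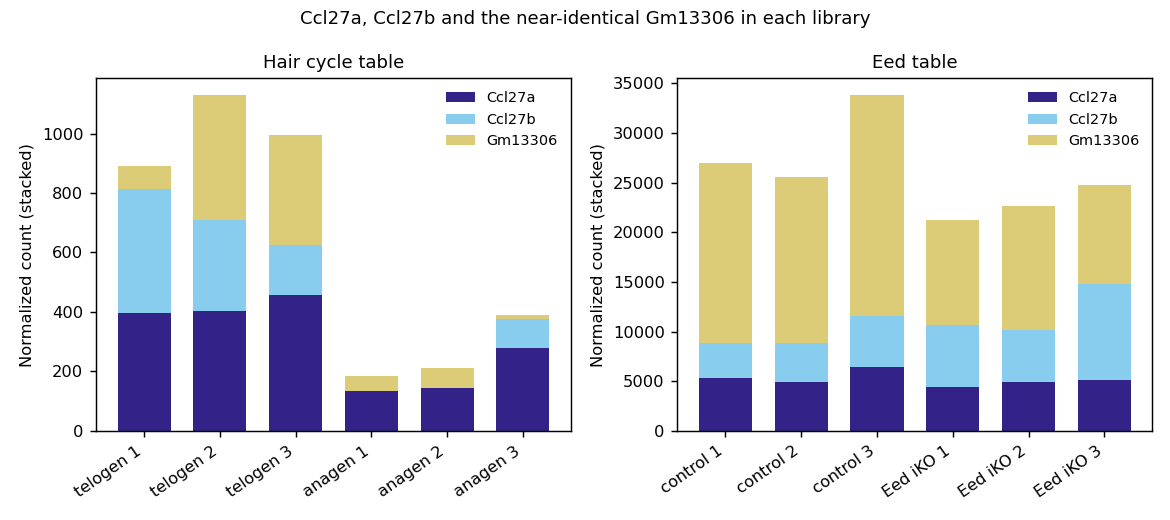
Normalized counts of Ccl27a, Ccl27b and Gm13306 stacked in each library, with the hair cycle table on the left and the Eed table on the right. The summed bars are lower in all 3 anagen libraries than in telogen, and in the Eed table they are 21260 to 24790 in Eed iKO and 25560 to 33800 in control, with more of the bar taken by Ccl27b in Eed iKO.

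Ccl28, the other ligand of Ccr10, read 84.2, 18.9 and 45.3 normalized counts in telogen, against 9.65, 15.2 and 6.86 in anagen. The groups did not overlap, yet the test was not passed (log2 fold change -1.95, SE 0.69, adjusted p = 0.0954). It passed without telogen replicate 2 (log2 fold change -2.51, adjusted p = 0.0432). Ccl25, the ligand of Ccr9, overlapped between the groups, with 172, 101.4 and 160.1 in telogen and 133, 129 and 68.1 in anagen (log2 fold change -0.42, 95% interval -1.32 to 0.48, adjusted p = 0.548).

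The inflammatory ligands were low in both phases, and none of those tested passed. Cxcl10, an interferon-induced ligand of Cxcr3, read 11.1, 10.97 and 9.69 in telogen and 12.5, 23.4 and 38.7 in anagen. It was the one ligand tested with every anagen library above every telogen library (log2 fold change 1.02, SE 0.66, adjusted p = 0.345). Cxcl11, which binds the same receptor, read 46.3, 0 and 6.32 in telogen and 21.3, 11.6 and 9.42 in anagen (log2 fold change 1.03, adjusted p = 0.62). It is annotated as a polymorphic pseudogene, and 41.7% of its exon bases overlap Gm2673 on the other strand. Cxcl1, a neutrophil attractant that binds Cxcr2, read 33.8, 4.77 and 13.7 in telogen and 21.9, 33.8 and 34.4 in anagen (log2 fold change 1.08, adjusted p = 0.368).

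Ccl2, a monocyte attractant, read 0, 33.5 and 10.6 in telogen and 7.91, 12.3 and 7.86 in anagen (log2 fold change 0.46, adjusted p = 0.828). The eotaxin Ccl11 read 12.4, 11.1 and 21.5 in telogen and 2.38, 5.35 and 8.42 in anagen, with no overlap (log2 fold change -1.39, adjusted p = 0.262). Ccl24, another eotaxin, read 24.0, 14.5 and 46.8 in telogen and 14.3, 25.0 and 12.6 in anagen, with overlap (log2 fold change -0.59, adjusted p = 0.596). Cx3cl1, the membrane-bound fractalkine, read 2.68, 39.2 and 64.9 in telogen and 29.6, 46.9 and 9.87 in anagen, a spread wider within than between phases (log2 fold change 0.24, adjusted p = 0.901). For Ccl2, Cxcl11 and Cx3cl1 the positive log2 fold change is a difference of mean logs, and the mean normalized count was lower in anagen (9.36 against 14.7, 14.1 against 17.5, and 28.8 against 35.6). Of the 14 ligands, 7 read lower in every anagen library than in any telogen library and 1 read higher, where 15.2% and 18.1% of all genes did so. Ccl11 is among the 7, but it passed the filter only through its telogen values. All its anagen values were under the count minimum of 10, so its lack of overlap follows from the filter. Ccl27b and Ccl28 also needed their telogen values to pass.

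The other 25 ligands of the hair cycle table were not tested. Of these, 8 were listed at 0 in every library: Ccl1, Ccl3, Ccl4, Ccl8, Ccl12, Ccl17, Ccl21b and Ccl26. Among them is Ccl8, which bulge cells are known to express. A further 11 stayed under 10 normalized counts in every library, and the other 6 exceeded it in at least 1. Cxcl5 read 3.85, 10.0 and 36.7 in telogen and 62.5, 5.35 and 9.42 in anagen. Ccl5 read 3.77, 60.1 and 7.56 in telogen and 3.99, 7.99 and 23.5 in anagen, and Cxcl9 reached 24.7 in 1 anagen library and at most 4.97 in the other 5. Ccl20, a Langerhans cell attractant through Ccr6, read 0, 0 and 1.25 in telogen and 2.38, 3.53 and 2.11 in anagen.

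**Figure D3:**
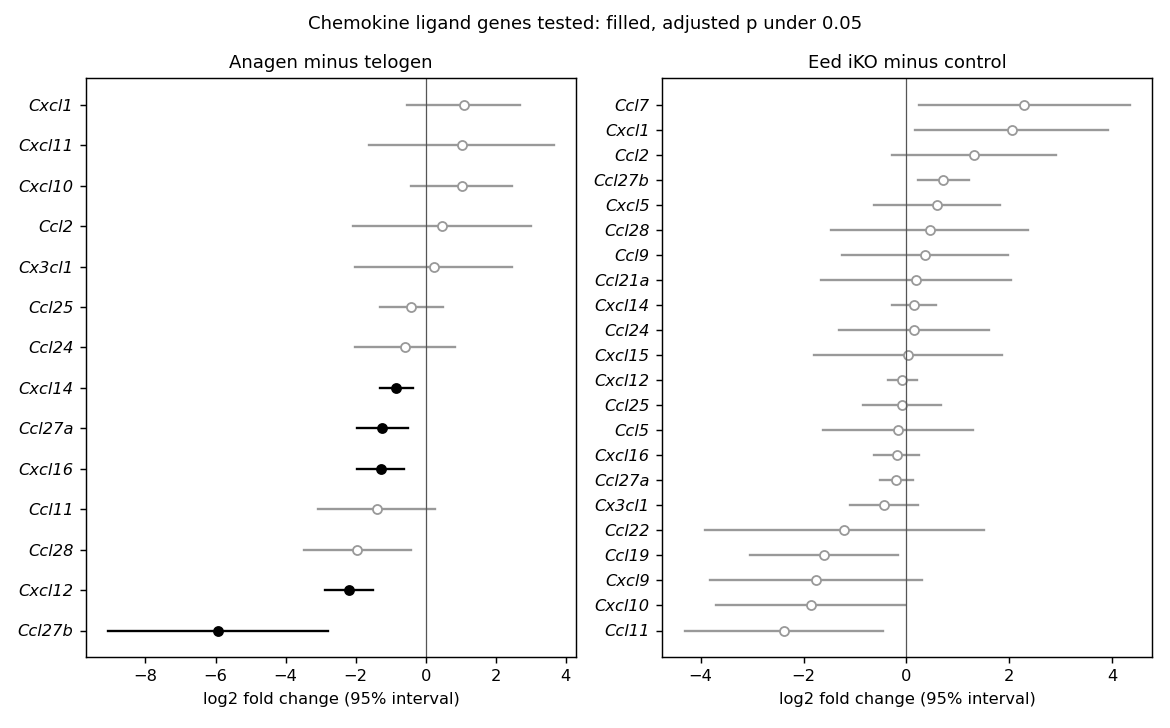
Log2 fold change of each ligand tested with its 95% interval from limma, anagen minus telogen on the left and Eed iKO minus control on the right. Filled points have an adjusted p under 0.05: 5 of 14 on the left, all below 0, and 0 of 22 on the right.

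Of 23 receptors and scavengers of these ligands, 10 were tested, 1 rose and 2 fell, where 11.6% of all genes were called in either direction. Of the 10 log2 fold changes 9 were negative, and that of Ackr3 was positive. Ackr3, which takes up Cxcl12, read 64.7, 47.6 and 61.8 normalized counts in telogen, against 451, 448 and 629 in anagen. It rose by 3.11 on the log2 scale (SE 0.33, adjusted p = 0.000207) and stayed called with each library left out, so Cxcl12 and Ackr3 moved in opposite directions in the same libraries. Cxcr4, the signalling receptor, read 42.6, 34.1 and 18.2 in telogen and 42.0, 25.3 and 16.03 in anagen (log2 fold change -0.20, 95% interval -1.53 to 1.13, adjusted p = 0.858).

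Ackr4, which removes Ccl19, Ccl21 and Ccl25, read 1092, 1679 and 1171 in telogen and 389.5, 390.5 and 854 in anagen, and fell by 1.35 (adjusted p = 0.022). Cxcr6, the receptor of Cxcl16, read 18.4, 13.3 and 35.4 in telogen and 2.38, 4.47 and 0 in anagen. Its call was marginal (log2 fold change -3.03, adjusted p = 0.0499) and was lost when any library was left out, with adjusted p-values from 0.0698 to 0.161. That of Ackr4 was lost without telogen replicate 2 (adjusted p = 0.0659), anagen replicate 1 (0.104) or anagen replicate 2 (0.0998).

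Dpp4, a surface protease that trims and inactivates Cxcl12 and several other chemokines, read 6.64, 7.84 and 41.8 in telogen and 114, 329 and 129 in anagen. It rose by 3.58 (SE 0.71, adjusted p = 0.00938), and the call was lost without anagen replicate 2 (adjusted p = 0.0616). Adam10 read 552, 744 and 547 in telogen and 1014, 1105 and 896 in anagen, and did not pass (log2 fold change 0.72, adjusted p = 0.0611). Adam17 overlapped between the phases (log2 fold change 0.16, adjusted p = 0.661).

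**Figure D4:**
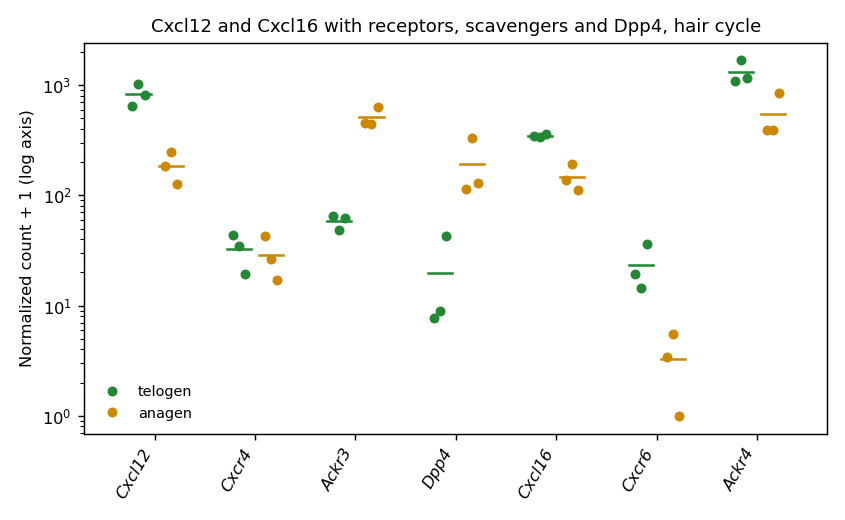
Normalized counts plus 1 (log axis) of Cxcl12 and Cxcl16 beside Cxcr4, Cxcr6, the scavengers Ackr3 and Ackr4 and the protease Dpp4, in 3 telogen and 3 anagen libraries. Points are libraries and short lines are means. Cxcl12 lies lower in anagen, Ackr3 and Dpp4 lie higher, and Cxcr4 overlaps.

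Known inducers of inflammatory ligands were counted in 3 lists, beside the 11.6% of all genes called. Of 13 NF-kB components and feedback genes, all 13 were tested, 1 rose and 0 fell. It was Nfkbiz, an atypical IκB induced by IL-1 signalling, which read 1268, 1113 and 1064 in telogen and 2128, 2520 and 1908 in anagen (log2 fold change 0.92, adjusted p = 0.0124). Nfkb1 and Tnfaip3 read higher in every anagen library without passing (log2 fold changes 0.54 and 0.82, adjusted p = 0.0774 and 0.0645). Of 5 interferon-related inducers of Cxcr3 ligands, 4 were tested and 1 rose. Irf1, a transcription factor downstream of interferon, read 80.8, 114 and 51.3 in telogen and 294, 252 and 227 in anagen (log2 fold change 1.70, adjusted p = 0.0161). Irf9 read lower in every anagen library without passing (log2 fold change -1.04, adjusted p = 0.0858). Of 10 inducing cytokines and their receptors, 5 were tested and 0 were called.
Both calls hung on single libraries: Nfkbiz lost it without anagen replicate 1 (adjusted p = 0.0657) or 2 (0.087), and Irf1 without anagen replicate 1 (0.0905), 2 (0.0718) or 3 (0.0515).

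Markers of other cells the sort could hold were counted in the same libraries. The 8 markers of interfollicular epidermis, infundibulum and sebaceous gland summed to 8501 to 18010 in telogen and 6407 to 15430 in anagen. All 8 were tested and 0 were called. The 6 leukocyte markers summed to 58.1 to 103 normalized counts in telogen and 51.7 to 84.2 in anagen, with 0 of 2 tested called. The T cell markers summed to 146 to 202 in telogen and 169 to 325 in anagen, with 0 of 3 tested called. Those of Langerhans and dendritic cells summed to 69.0 to 385 and 31.1 to 147, with 0 of 4 tested called. The endothelial markers summed to 67.3 to 133.5 and 59.8 to 105, with 0 of 1 tested called. The 6 macrophage markers summed to 19.5 to 66.4 and 13.4 to 30.3, with Adgre1, C1qa and C1qb listed at 0 in every library. Of the 4 melanocyte markers, which summed to 72.7 to 151 in telogen and 435 to 770 in anagen, Dct rose by 2.51 (adjusted p = 0.00187). Of the 6 fibroblast and dermal papilla markers, which summed to 316 to 649 and 470 to 628, 4 were tested and 2 rose, Col1a1 by 2.06 (adjusted p = 0.00928) and Dcn by 4.05 (adjusted p = 0.0106). The other 2 tested read lower in anagen without passing, Col1a2 with a log2 fold change of -0.997 and no overlap (adjusted p = 0.108) and Pdgfra with -1.02 and overlap (adjusted p = 0.586). Cxcl12 and Ackr3 are also made by dermal cells, and the part of these markers in their values was not tested. Without telogen replicate 1, which had the low Krt15, 4 of 16 ligands tested were called, and Cxcl12 fell by 2.34 on the log2 scale (adjusted p = 0.00142).

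The second comparison asked what loss of Eed does to the same ligands in stem cells of resting follicles. The proliferation gene Mki67 read 639, 2543 and 928 in control and 6125, 6301 and 609 in Eed iKO. Its groups overlapped (log2 fold change 1.32, adjusted p = 0.462). No ligand passed the test: 0 of 22 were called in limma, where 0.0267% of all 15008 genes were, and 6 of 22 had an unadjusted p under 0.05, against 14.7% of all genes. On the reads recovered, edgeR called 0 and DESeq2 called 1, Ccl27b. By the thresholds of the study's methods, a log2 fold change beyond 1.5 with an unadjusted p under 0.05, 5 of 22 (22.7%) passed, against 1.75% of all genes. These were Ccl7 and Cxcl1, higher in Eed iKO, and Ccl11, Ccl19 and Cxcl10, lower. The highest value of any of the 5 in a library was 364 normalized counts, and 3 of 22 passed by edgeR. Over all 14 alternatives tried, the number past these thresholds ran from 2 to 6. Leaving out control replicate 1 or 2 or Eed iKO replicate 3 left 2 past these thresholds, and leaving out Eed iKO replicate 2 left 3. For its volcano plot the study states another rule, a fold change of at least 1.5 with an adjusted p under 0.05. No ligand met that rule in limma. The median over the 22 ligands was a log2 fold change of -0.02, with 11 above and 11 below 0.

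**Figure D5:**
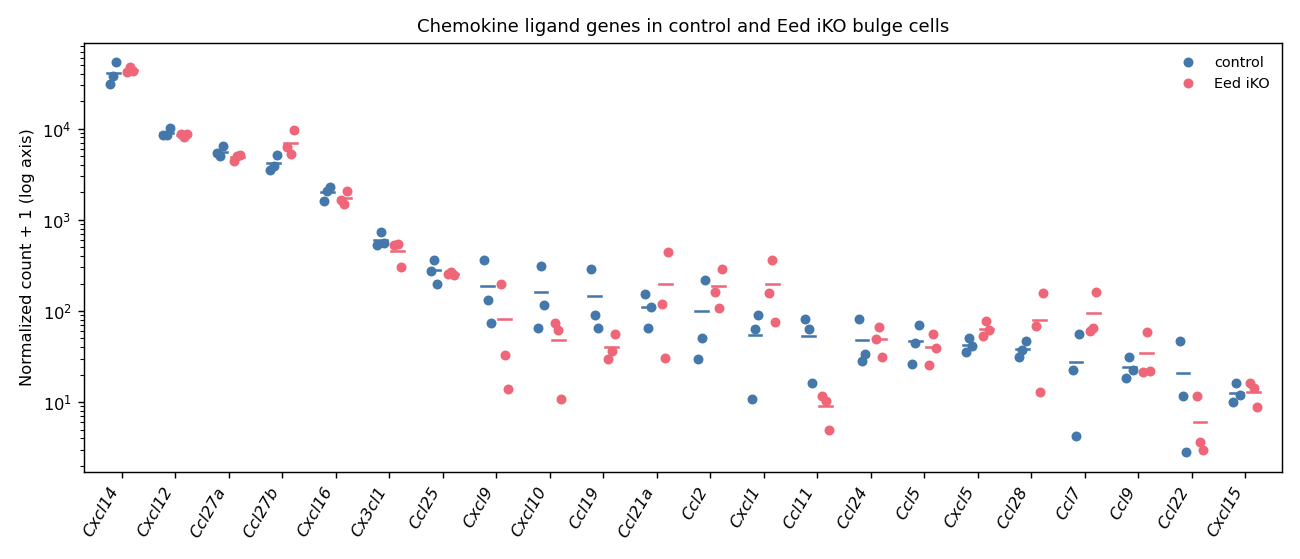
Normalized counts plus 1 (log axis) of the 22 ligand genes tested in 3 control and 3 Eed iKO libraries. Points are libraries and short lines are means. Among the abundant ligands on the left, Cxcl14, Cxcl12, Ccl27a and Cxcl16 overlap between groups and Ccl27b does not, and most of the lower ligands further right spread widely within a group.

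Of the abundant ligands, Cxcl14, Cxcl12 and Cxcl16 overlapped between the groups, with intervals that held 0. Cxcl14 read 30980, 37791 and 53446 normalized counts in control and 41372, 47751 and 42898 in Eed iKO (log2 fold change 0.15, 95% interval -0.28 to 0.57, adjusted p = 0.772). Cxcl12 read 8609, 8511 and 10047 in control and 8749, 8117 and 8824 in Eed iKO (log2 fold change -0.08, 95% interval -0.37 to 0.21, adjusted p = 0.826). The interval of Cxcl12 was the narrowest of the ligands, and its groups overlapped. Cxcl16 read 1598, 2088 and 2294 in control and 1658, 1501 and 2074 in Eed iKO (log2 fold change -0.19, 95% interval -0.63 to 0.25, adjusted p = 0.706).

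Cx3cl1 read 525, 726 and 559 in control and 524, 542 and 301 in Eed iKO, with overlap (log2 fold change -0.44, adjusted p = 0.525). Ccl25 read 277, 363 and 199 in control and 253, 266 and 247 in Eed iKO, which lay within the control range (log2 fold change -0.09, adjusted p = 0.932). Ccl28 read 30.5, 36.8 and 45.3 in control and spread from 11.95 to 157 in Eed iKO, with 67.7 between (log2 fold change 0.45, adjusted p = 0.849).

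The Ccl27 genes had values in different directions, with no call in limma. Ccl27a read 5357, 4942 and 6391 normalized counts in control and 4431, 4951 and 5158 in Eed iKO (log2 fold change -0.19, adjusted p = 0.574). Ccl27b read 3506, 3921 and 5127 in control and 6250, 5214 and 9583 in Eed iKO, with no overlap (log2 fold change 0.72, SE 0.23, adjusted p = 0.18). Gm13306, which has the coding sequence of Ccl27b, read 18136, 16697 and 22276 in control and 10576, 12465 and 10046 in Eed iKO, with no overlap in the other direction (log2 fold change -0.78, SE 0.15, adjusted p = 0.0907). DESeq2 on the recovered reads called both, Ccl27b at an adjusted p of 0.0436 and Gm13306 at 0.000756, and so did limma with a replicate block, at 0.0192 and 0.0116.
Together the 3 genes read 27000, 25560 and 33800 in control and 21260, 22630 and 24790 in Eed iKO, and the sum did not pass although the groups did not overlap (log2 fold change -0.32, 95% interval -0.65 to 0.01, adjusted p = 0.348). Ccl27b held 13.0% to 15.3% of the sum in control and 23.0% to 38.7% in Eed iKO, and Gm13306 held 65.3% to 67.2% and 40.5% to 55.1%. Ccl27b and Gm13306 share their coding sequence, and 57% of the 31-base words of Ccl27a are in another gene, most often Gm20878. The estimates therefore rest in part on how the counting divided the shared reads. Gm20878 was not in the sum.

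Among the ligands of Ccr2, which draws monocytes, Ccl7 read 21.5, 3.25 and 54.4 in control and 59.1, 63.7 and 159 in Eed iKO. The groups just failed to overlap (log2 fold change 2.29, SE 0.93, adjusted p = 0.284). Ccl2 read 29.1, 49.8 and 217 in control and 161, 108 and 289 in Eed iKO, with overlap (log2 fold change 1.31, adjusted p = 0.422).

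None of the 3 ligands tested of Cxcr2, which draws neutrophils, passed. Cxcl1 read 9.71, 62.8 and 88.9 in control and 156, 364 and 75.1 in Eed iKO, where 1 Eed iKO library lay inside the control range (log2 fold change 2.05, SE 0.85, adjusted p = 0.296). Cxcl5 read 34.7, 49.8 and 39.9 in control and 51.6, 77.0 and 60.3 in Eed iKO, with no overlap (log2 fold change 0.59, adjusted p = 0.665). Cxcl2 was not tested, and was listed at 0 in all 3 control libraries and at 37.6, 7.97 and 0.989 in Eed iKO. Cxcl15 read 9.02, 15.2 and 10.9 in control and 15.1, 13.3 and 7.91 in Eed iKO (log2 fold change 0.03, adjusted p = 0.991).

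Neither of the interferon-induced ligands of Cxcr3, which draws T cells, passed. Cxcl10 read 64.5, 308 and 115 in control and 72.0, 61.1 and 9.89 in Eed iKO, with overlap (log2 fold change -1.86, SE 0.83, adjusted p = 0.333). Cxcl9 read 364, 130 and 72.5 in control and 197, 31.9 and 12.9 in Eed iKO, with overlap (log2 fold change -1.76, SE 0.93, adjusted p = 0.406).

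Ccl11 read 81.2, 61.7 and 15.4 in control and 10.8, 9.30 and 3.95 in Eed iKO, with no overlap (log2 fold change -2.38, SE 0.87, adjusted p = 0.241). The other eotaxin, Ccl24, read 80.5, 27.1 and 32.6 in control and 48.4, 65.1 and 30.6 in Eed iKO (log2 fold change 0.14, adjusted p = 0.943). Of the ligands of Ccr7, which guides dendritic cells to lymph nodes, Ccl19 read 285, 89.9 and 64.4 in control and 29.0, 35.9 and 54.4 in Eed iKO, with no overlap (log2 fold change -1.60, SE 0.65, adjusted p = 0.285). Ccl21a read 153, 63.9 and 109 in control and 118, 29.2 and 445 in Eed iKO, with overlap (log2 fold change 0.18, adjusted p = 0.942). Both share sequence with copies, as given above.

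Ccl22, a ligand of Ccr4, read 46.5, 10.8 and 1.81 in control and 10.8, 2.66 and 1.98 in Eed iKO (log2 fold change -1.21, adjusted p = 0.696). Ccl5, a T cell attractant, read 25.0, 43.3 and 68.9 in control and 24.7, 54.4 and 38.6 in Eed iKO (log2 fold change -0.17, adjusted p = 0.932). Ccl9, a ligand of Ccr1, read 17.3, 30.3 and 21.8 in control and 20.4, 58.4 and 20.8 in Eed iKO (log2 fold change 0.36, adjusted p = 0.858). All 3 overlapped between the groups. Besides Cxcl2, the 7 ligands not tested were Ccl1, Ccl6, Ccl17, Ccl20, Ccl21b, Cxcl3 and Cxcl17, of which Ccl20 read 0, 3.25 and 0 in control and 1.08, 27.9 and 9.89 in Eed iKO. Of the 22 tested, 3 were higher (Ccl7, Cxcl5 and Ccl27b) and 2 lower (Ccl11 and Ccl19) with no overlap, where 10.2% and 10.0% of all genes were. Ccl11 needed its control values to pass the filter, as it was under 10 in Eed iKO replicates 2 and 3.

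In the hair cycle table, 9 of these 22 ligands were not tested. Apart from Cxcl5, Ccl5 and Cxcl9, given above, Ccl9 read 11.6, 10.0 and 6.33 in telogen and 6.31, 7.15 and 1.04 in anagen. Cxcl15 read 1.94, 6.69 and 1.27 in telogen and 0, 0.895 and 0 in anagen. Ccl7 read 0, 0 and 1.25 in telogen and 0.791, 1.77 and 4.21 in anagen, Ccl22 reached at most 1.94 in any library, and Ccl19 at most 3.38. Ccl21a read 6.76, 0 and 0 in telogen and 0, 7.22 and 0 in anagen. These values are too low to compare.

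Receptors, scavengers and inducers showed 0 called genes in Eed iKO in limma, of 14 receptors and scavengers, 13 NF-kB genes, 7 inducing cytokines and receptors, 4 interferon-related inducers and 3 proteases tested. Ackr4, by far the most abundant scavenger, read 5053, 7647 and 7155 in control and 8656, 12273 and 6746 in Eed iKO (log2 fold change 0.46, adjusted p = 0.375). Ackr3 overlapped, with 339 to 569 in control and 259 to 619 in Eed iKO.
No marker of immune cells was called in Eed iKO. Log2 fold changes were positive for 3 of 3 leukocyte markers tested, 4 of 5 of Langerhans and dendritic cells and 2 of 2 of macrophages. All 3 T cell markers tested had negative log2 fold changes with overlap, from -0.57 for Cd3d (adjusted p = 0.725) upward. Cd8a, on this list but not tested, read 2.08, 0 and 0 in control and 21.5, 9.30 and 136 in Eed iKO. Its groups did not overlap, and those of Cd3g, also not tested, did. The T cell list summed to 74.9 to 143 normalized counts in control and 62.4 to 240.2 in Eed iKO. Cd207 (langerin), the defining gene of Langerhans cells, was listed at 0 in every control library and at 18.3, 13.3 and 23.7 in Eed iKO. The 5 Langerhans and dendritic cell markers in the table summed to 178 to 439 in control and 334 to 833 in Eed iKO. H2-Ab1 read higher in every Eed iKO library (log2 fold change 2.06, adjusted p = 0.232), and H2-Aa overlapped (log2 fold change -0.25, adjusted p = 0.889). The 3 macrophage markers summed to 148 to 734 and 290 to 697, with Csf1r at 0 to 2.72 in control and 12.9 to 23.9 in Eed iKO. Csf1r and Cd207 passed the filter only through their Eed iKO values. Cd68, which held most of the macrophage sum, overlapped between the groups (log2 fold change 0.28, adjusted p = 0.860). Lyz2, not tested, was listed at 0 in every control library and at 55.9, 65.1 and 0 in Eed iKO. The 6 leukocyte markers summed to 47.2 to 117 in control and 133 to 315 in Eed iKO, without overlap. Fibroblast markers summed to 1688 to 3279 in control and 1293 to 1930 in Eed iKO, with Col1a1 lower in every Eed iKO library (adjusted p = 0.228). Of the 4 tested, 2 had positive and 2 negative log2 fold changes. Col1a2 (-0.49, adjusted p = 0.386), Pdgfra (0.04, adjusted p = 0.984) and Dcn (0.34, adjusted p = 0.887) overlapped between the groups. The 8 markers of interfollicular epidermis, infundibulum and sebaceous gland summed to 17510 to 54570 in control and 12490 to 69740 in Eed iKO. Of these 8, 0 were called. Krt10 was highest in replicate 3 of both groups, at 26841 in control and 45520 in Eed iKO. The part of all these cells in the values of Ccl7, Cxcl1, Ccl11, Ccl19, Cxcl10 and the Ccl27 genes was not tested.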

How the data were processed

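RNA-seq was performed on 12 libraries of sorted mouse hair follicle stem cells, amplified from little RNA with no molecular identifiers. The authors quantified transcripts with kallisto 0.42.5 on a GENCODE annotation and deposited gene counts divided by DESeq2 size factors, a normalized signal, in 1 table for each comparison. The deposited signal keeps steps of 1 read in the Eed table, from which whole reads were recovered (100% within 0.02 read). In the hair cycle table it does not, so depth, and the precision it gives, is unknown there. Counting was not stated to use strand. The tables were normalized separately, so levels were compared within a table.

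Values were tested as log2(normalized count + 1) with limma 3.58.1 (moderated by eBayes with an intensity trend) in R 4.3.3, for genes that passed filterByExpr of edgeR 4.0.16 at a count minimum of 10, with Benjamini-Hochberg adjustment over all genes tested. Fold changes on this scale understate those of low genes. Differences are anagen minus telogen and Eed iKO minus control, and intervals are at 95%. As alternatives, a pseudocount of 0.1, no filter, TMM scaling, a replicate block, no trend and each library left out were tried, and edgeR and DESeq2 1.42.0 on the recovered reads. Summing the Ccl27 copies was added after seeing the data. Shared 31-base words and exon lengths came from GENCODE vM21 (GRCm38), and promoters from RefSeq.

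Members are named by symbol, and every member tested in a table is given. The members and lists were chosen with earlier results of these data known. Scripts were tested on simulated data. No set test was run.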

Additional observations from a re-analysis of the deposited data

How the results depend on the processing

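The ligands called in Eed iKO numbered 0 in limma, 1 with DESeq2 on recovered reads and 1 with the replicate block, and 0 with each library left out. Those past the study's thresholds there, 5 in limma, numbered 2 without a trend, 3 with edgeR, and 2 to 5 with each library left out. Between anagen and telogen, 5 ligands were called in limma, 2 without a trend, and 1 to 4 with each library left out, and those past the thresholds numbered 1 to 3.

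Whether replicate numbers pair the samples is not known. In the Eed table, correlations of same-numbered deviations were 0.039, 0.0684 and 0.193, and those of different numbers ran from -0.145 to 0.0769. These values are too few and too small to decide on pairing. In the hair cycle table, the same-numbered correlations were -0.0348, -0.0711 and -0.0294. With the replicate block, 1 ligand was called in Eed iKO (Ccl27b, adjusted p = 0.0192 in limma) and 4 in anagen, where Cxcl14 had an adjusted p of 0.0573.

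The sign of the log2 fold change changed with a library left out for Cxcl14 (-0.033 to 0.36), Ccl9 (-0.13 to 0.61), Ccl5 (-0.54 to 0.18), Ccl21a (-0.78 to 1.16), Ccl25 (-0.31 to 0.12), Ccl24 (-0.16 to 0.61), Ccl28 (-0.35 to 1.45) and Cxcl15 (-0.14 to 0.28) in Eed iKO, and for Ccl2 (-0.98 to 1.58), Cx3cl1 (-1.03 to 1.05), Cxcl11 (-0.38 to 2.40) and Cxcr4 (-0.54 to 0.13) in anagen. None of these was called. The cause was not tested. Low ligands are limited by 3 libraries a group and by unknown depth in the hair cycle table.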
